A study of Mus musculus with 36 samples.

Results

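Oxidative phosphorylation is carried out by 5 complexes of the inner mitochondrial membrane, and 82 of the 25965 genes in the expression table were taken here as their nuclear-encoded genes. They were chosen by symbol alone: genes on chromosomes 1 to 19 whose names begin with Nduf followed by a, b, c, s or v and a digit, with Uqcr, with Cox and a digit from 4 to 8, or with Atp5, together with Sdha to Sdhd, without pseudogenes. Of the 82, 33 belong to complex I, 4 to complex II, 8 to complex III, 19 to complex IV and 15 to complex V, while 3 (Atp5s, Atp5sl and Cox4nb) match the names and are not subunits. They lie on 18 autosomes. The 3 X-linked subunits Ndufa1, Ndufb11 and Cox7b were outside the choice and are given separately below.

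Xmas mouse embryonic stem cells (mESCs) are female C57/Bl6 lines whose X chromosomes carry different reporters at Hprt, GFP on one homologue and mCherry on its partner, and all 36 libraries come from such cells. Day 0 cells grew with 2i (inhibitors of MEK and GSK3) and LIF, and were then weaned in steps into DME HiHi, a serum medium without LIF, so that the medium and the day cannot be told apart. RNA was sequenced on each of the 9 days from 0 to 8 with 4 libraries a day: X14 double (replicate 1), X14 single (replicate 2), X18 double (replicate 3) and X18 single (replicate 4). The meaning of double and single is not given in the labels, nor is it said there whether libraries of one line are separate cultures, so p-values measure the spread between these libraries.

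Libraries held between 612740 and 2445826 reads in genes, with a median of 1297944. Levels below are reads divided by the library total used by the authors and scaled to a common total (RPM), in the order of replicates 1 to 4, and levels of different genes are compared only per kilobase of exon (RPKM). Changes are log2 differences between the means of 4 libraries. A gene was called where limma gave a Benjamini-Hochberg adjusted p under 0.05 over 14612 tested genes, which include 77 of the 82. The shallowest library held a count of 3 reads at 3.90 RPM and the deepest at 1.04 RPM, so levels near these values rest on few reads.

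Complex I oxidises NADH and complex II oxidises succinate; both pass electrons to ubiquinone. Complex III hands them to cytochrome c, complex IV passes them to oxygen, and complex V uses the resulting proton gradient to make ATP. All of complex II and most subunits of the others are encoded in the nucleus, and the remaining ones by mitochondrial DNA. Several complex IV subunits exist in a form found in most tissues and a form of heart, skeletal muscle, testis or lung, and naive pluripotent cells are known for active respiration beside glycolysis.

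Nuclear subunit promoters are known for short sites of NRF1, ETS-family factors (GABP) and YY1. RefSeq promoters (GRCm38.p6, 250 bases before to 50 after the start) were at hand for 66 of the 82 genes and for 27025 genes in all. On both strands, the palindromic 10-base NRF1 core shown in capitals in the sequences below was present in 5 of the 66 (7.58%) and in 1.07% of all promoters. The ETS letters CCGGAAG were in 16 (24.2%) against 9.93%, and the YY1 letters AAGATGG in 12 (18.2%) against 7.28%. No motif contains another. The 27025 genes were not limited to the 14612 tested ones, and the shares over tested genes alone are not given. These are descriptions of letters in a window and not of binding. The NRF1 matches are shown because the same letters occur in promoters of genes of complexes I, III, IV and V; capitals mark it, each run reads 5′ to 3′ on the gene's strand, and coordinates are on GRCm38.p6:
Atp5g2, chr15:102671070-102671099, minus strand: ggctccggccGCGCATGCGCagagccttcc
Atp5k, chr5:108434430-108434459, minus strand: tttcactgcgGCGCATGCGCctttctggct
Cox6a1, chr5:115349101-115349130, minus strand: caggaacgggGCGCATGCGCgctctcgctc
Ndufa11, chr17:56717692-56717721, plus strand: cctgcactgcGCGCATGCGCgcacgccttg
Uqcrc1, chr9:108936668-108936697, plus strand: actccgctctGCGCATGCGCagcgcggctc
The motif began 42, 50, 162 and 60 bases before the start in the first 4 and 30 bases after it in Uqcrc1. On day 6, Atp5k (-1.53), Ndufa11 (-1.39), Uqcrc1 (-0.92) and Cox6a1 (-0.58) were all called lower than on day 0. So were 60 of the 77 tested genes of the name rule and 16.3% of all tested genes. On day 8 Atp5k, Ndufa11 and Uqcrc1 were called lower, as were 45 of the 77 and 16.5% of all tested genes. Cox6a1 had a log2 change of -0.03 on day 8 and was not called. The part of the motif in these changes was not tested. Atp5g2 had too few reads to test.

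Several facts of the libraries touch the results. The double library of line X14 on day 0 had X-linked genes 0.78 log2 below autosomal ones. Its single partner had them 0.51 above. Each gene was taken relative to its mean over the 4 libraries of day 0. Both signs were the reverse of X18 on day 0 (0.70 and -0.47) and of both lines on days 1 to 6. Counts are therefore also given without both X14 day 0 libraries. The 77 tested genes of the name rule are short, with a median exon length of 1334 bp against 3490 bp for all tested genes, and 36.4% of them are under 1000 bp against 6.8%. The 13 genes of the mitochondrial chromosome had 0 reads in every library, so only nuclear subunits could be measured. By GENCODE transcripts, 19 of the 82 share at least 20% of their 75-base windows with other genes, among them Atp5o and Ndufb4, and their reads are uncertain; the deposited line of 13 names another overlapping feature.

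Subunit genes as a group were highest on day 0 and lowest on day 6. Summed over the 79 subunits of the 82 genes, the level was 12494, 16575, 22540 and 21040 RPM on day 0 (1.25 to 2.25% of each library). On day 6 it was 8677, 9166, 9165 and 9474 RPM, and on day 8 it was 7373, 8911, 11468 and 14090 RPM. All day 6 libraries lay below all day 0 libraries, whereas the X18 single library of day 8 overlapped day 0. The daily mean went from 18163 ± 4550 (SD, n = 4) on day 0 through 13350 ± 2170 on day 2 and 12161 ± 973 on day 4 to 9120 ± 330 on day 6 and 10460 ± 2951 RPM on day 8. The share of the library total that fell in genes moved in the opposite order to the summed level within day 0 (88.7, 87.4, 77.7 and 82.3%) and within day 8 (90.9, 89.6, 89.2 and 86.9%), and was 79.6% in X14 double on day 5, which had 17305 RPM. Its part in the levels was not tested. In these bulk libraries, fewer cells of a type and less RNA per cell cannot be told apart.

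**Figure D1:**
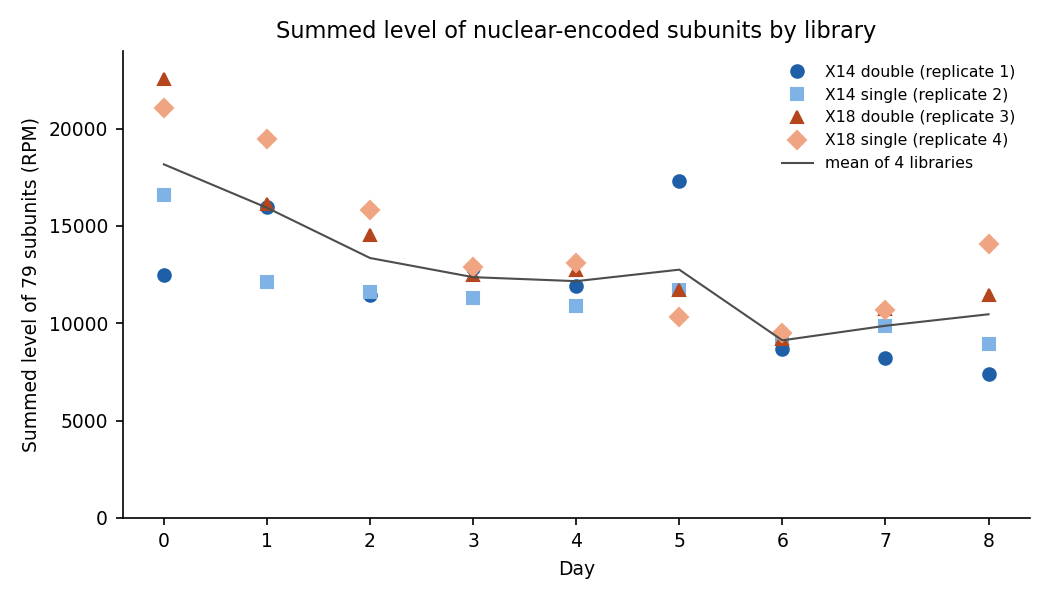
Summed level of the 79 nuclear-encoded subunits (RPM, linear axis) against day of differentiation, with 1 point per library by line and label and a line through the daily means. The daily mean lies at 18163 RPM on day 0, at 9120 RPM on day 6, where the 4 libraries lie within 8677 to 9474, and at 10460 RPM on day 8, where they spread from 7373 to 14090.

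On day 4, 25 of 77 tested genes were called lower than on day 0 (9.42% of all tested genes were lower) and 1 was called higher (16.3% were higher). Of these, 13 and 1 had a change of at least 2-fold (6.4% and 12.2% of all tested genes). Among all 77, called or not, 12 lay below day 0 in every library (7.83%). The median of the 77 log2 changes was -0.70 against 0.12 over all genes. On day 8, 45 were called lower (16.5% of all tested genes) and 0 higher (29.2%), while 54 of the 77 had an unadjusted p under 0.05 in either direction (52.6% of all tested genes). A change of at least 2-fold was left in 23 (11.1%), and 7 lay below day 0 in every library (9.85%), a share near that of all genes. The median was -0.80 against 0.23. Day 6 was compared with day 0 after the summed levels had been seen: 60 were called lower (16.3%) and 0 higher (28%), 45 of them at least 2-fold (11%), with a median of -1.14 against 0.24. Levels of 40 genes on day 6 lay below day 0 in every library, where 11.1% of all tested genes did so. Leaving out 1 replicate number changed the calls on day 4 to between 7 (without X18 double) and 51 (without X14 double), and those on day 8 to 25 without X18 double. The shares of all tested genes called in these fits are not given.

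Between days 4 and 8, 8 of 77 genes were lower (13.4% of all tested genes), namely Cox7b2, Cox4nb, Uqcrc1, Ndufa4l2, Atp5b, Uqcrq, Atp5g1 and Atp5a1, and Cox6b1 and Cox6b2 were higher (19.3%). Of the 8, 3 were lower by at least 2-fold (9.01%). Over all 9 days, 60 of 77 varied (65.2% of all tested genes), and 4 of the 60 had their largest deviation upward (Cox4i2, Ndufa4l2, Atp5s and Cox7a2l). The day medians from day 1 to day 8 were -0.17, -0.52, -0.67, -0.70, -0.68, -1.14, -1.02 and -0.80.

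Each combination of line and label was also measured against its own day 0 library. The median gene on day 4 stood at -0.01 in X14 double, -0.75 in X14 single, -1.04 in X18 double and -0.88 in X18 single. On day 8 the values were -0.67, -0.98, -1.01 and -0.61. All 4 medians were below 0 on day 8, and on day 4 that of X14 double, whose day 0 library went against its label, was near 0. Without both X14 day 0 libraries, 53 genes were called on day 4, 64 on day 6 and 56 on day 8, with medians of -1.10, -1.57 and -1.29. The share of all tested genes called without these libraries is not given. The spread between libraries was uneven: the median SD over the 77 genes was 0.62 log2 units on day 0 and 0.54 on day 8, against 0.20 on days 3 and 4. The limma fit of days used 1 estimate of spread per gene over all 9 days. Its SEs and p-values for day 8 against day 0 may therefore be too small.

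Complex I, the NADH dehydrogenase, has a core of catalytic subunits and many accessory ones. Of its 33 genes, 7 were lower on day 4, 28 on day 6 and 17 on day 8 (9.42%, 16.3% and 16.5% of all tested genes). None was higher on these days, against 16.3%, 28% and 29.2% of all tested genes. The 7 core genes had a median of -0.47 on day 8, with Ndufs1, Ndufv1, Ndufv2 and Ndufs8 lower, and the 26 accessory genes had a median of -0.79, with 13 lower. No complex I gene was called between days 4 and 8, where 2 of the 33 had an unadjusted p under 0.05 (41.7% of all tested genes).

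Ndufb8, an accessory subunit of the membrane arm (chr19:44548572-44555440 on mm10), had 121, 212, 534 and 322 RPM on day 0. On day 6 it had 67.8, 70.4, 80.2 and 89.9 RPM, and on day 8 it had 60.2, 78.7, 89.6 and 156 RPM. Every day 6 library was below every day 0 library, while on day 8 the X18 single library overlapped the X14 double library of day 0. The log2 change was -1.75 ± 0.34 (SE) on day 6 (limma adjusted p = 9.3e-05) and -1.52 ± 0.34 on day 8 (limma adjusted p = 0.00043). Ndufb4, another membrane-arm accessory subunit (chr16:37647170-37654453 on mm10), rested on few reads: 8.33, 15.7, 32.9 and 18.8 RPM on day 0 and 2.83, 0, 0.691 and 2.48 RPM on day 6, which are 106 and 10 reads in all. It was 11.9 RPM in X18 single on day 8 and 2.61 to 3.89 in the other libraries, with a log2 change of -1.94 ± 0.49 (limma adjusted p = 0.00161). The call was lost without X18 double, at -1.37, and 35.2% of its windows are shared with other genes.

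Among the core, Ndufv2, part of the flavoprotein module that takes electrons from NADH, was picked after its values were seen. Its 191, 310, 563 and 446 RPM on day 0 had turned into 124, 120, 125 and 159 RPM by day 4 and 98.1, 152, 179 and 226 RPM by day 8. The day 4 libraries were all below day 0, and those of day 8 overlapped it. The log2 change was -1.41 ± 0.27 on day 4 (limma adjusted p = 0.00018) and -1.16 ± 0.27 on day 8 (limma adjusted p = 0.00071).

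Complex II also serves the citric acid cycle, and 2 of its 4 subunits were called lower on day 8 (16.5% of all tested genes). Sdhd, a membrane anchor (chr9:50596338-50603849 on mm10), had 208, 317, 603 and 512 RPM on day 0, 126, 132, 138 and 178 RPM on day 6 and 103, 160, 151 and 299 RPM on day 8. Sdhb, the iron-sulfur subunit, had 114, 123, 129 and 159 RPM on day 0 and 76.9, 74.1, 89.9 and 75.6 RPM on day 6. For both, the day 6 libraries were all below day 0. On day 8 Sdhd was lower by a log2 change of -1.19 ± 0.28 (limma adjusted p = 0.00077) and Sdhb by -0.62 ± 0.20 (limma adjusted p = 0.0111), a call lost without X14 single, at -0.48.

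Sdha, the flavoprotein that oxidises succinate (chr13:74322254-74350280 on mm10), had 369, 279, 110 and 196 RPM on day 0, 295, 306, 283 and 293 RPM on day 6 and 259, 301, 269 and 316 RPM on day 8. Its day 0 libraries spread on both sides of the later ones, in the opposite order to Sdhd, with X18 double lowest. The log2 change of 0.39 ± 0.22 on day 8 did not pass the test (limma adjusted p = 0.144). Sdhc, the other membrane anchor, had 117, 126, 87.4 and 153 RPM on day 0 and 69.6, 75.8, 97.5 and 119 RPM on day 8, a log2 change of -0.42 ± 0.22 (limma adjusted p = 0.112). Sdha has an exon length of 3883 bp and Sdhd of 1287 bp, and the part of length in the difference was not tested.

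All 8 complex III genes were below day 0 on day 8, of which 6 were called (16.5% of all tested genes were lower). The exceptions were Uqcrh and Uqcrfs1, the Rieske iron-sulfur protein. On day 6 all 8 were called lower (16.3% of all tested genes). Uqcr10, a small accessory subunit (chr11:4701973-4704342 on mm10), had 130, 317, 700 and 418 RPM on day 0, 67.3, 69.1, 71.2 and 69.4 RPM on day 6 and 55.5, 83.6, 105 and 145 RPM on day 8. The 4 day 6 libraries lay within 4 RPM of each other and below all of day 0. The log2 change was -2.26 ± 0.37 on day 6 (limma adjusted p = 8.2e-06) and -1.85 ± 0.37 on day 8 (limma adjusted p = 0.0001).

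Uqcrq, a further small subunit of complex III, went from 89.3, 176, 400 and 294 RPM on day 0 over 110, 102, 133 and 138 RPM on day 4 to 41.5, 53.4, 74.8 and 99.9 RPM on day 8. Its day 8 libraries were all below those of day 4, by a log2 change of -0.91 ± 0.36 (limma adjusted p = 0.0487), a call lost whichever replicate was left out (-1.06 to -0.74). Uqcrc1, a core protein picked after its values were seen, kept groups apart at both steps: 345, 436, 335 and 446 RPM on day 0, 295, 318, 320 and 312 RPM on day 4 and 189, 202, 285 and 257 RPM on day 8. The first step, -0.32 ± 0.15 by day 4, was not called (limma adjusted p = 0.131). From day 4 to day 8 the change was -0.44 ± 0.15 (limma adjusted p = 0.0276), and from day 0 to day 8 -0.75 ± 0.15 (limma adjusted p = 0.00016). Cyc1, the cytochrome c1 of complex III, is not in the name rule and changed by -0.87 ± 0.19 on day 8 (limma adjusted p = 0.00029).

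Of 10 ubiquitous complex IV genes, 4 were lower on day 4, 9 on day 6 and 7 on day 8 (9.42%, 16.3% and 16.5% of all tested genes). They include Ndufa4, which was named for complex I and belongs to complex IV. Cox5b, Cox6a1 and Cox6b1 were not called on day 8. Cox4i1, the largest nuclear subunit, had 367, 523, 1032 and 927 RPM on day 0, 293, 301, 308 and 291 RPM on day 6 and 249, 242, 447 and 509 RPM on day 8. Its day 6 libraries were below day 0 and nearly level with each other. Cox5a, a subunit on the matrix side of complex IV that was picked after its values were seen, had 290, 533, 436 and 377 RPM on day 0 and 136, 125, 217 and 207 RPM on day 8. Its groups did not overlap, and the log2 change was -1.26 ± 0.23 (limma adjusted p = 2.9e-05). Cox8a, a small subunit of the same complex, had 233, 248, 258 and 262 RPM on day 0 and 102, 117, 135 and 172 RPM on day 8; its day 0 libraries lay close together, and the groups did not overlap. Its log2 change was -0.95 ± 0.20 (limma adjusted p = 0.00019).

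Cox6b1 was one of the 2 genes higher on day 8 than on day 4. It had 150, 218, 342 and 301 RPM on day 0, 97.5, 133, 114 and 154 RPM on day 4 and 137, 151, 233 and 261 RPM on day 8. Each combination of line and label was higher on day 8 than on day 4, and the groups overlapped. The log2 change was 0.62 ± 0.24 (limma adjusted p = 0.0488), just inside the threshold and lost without X14 single (0.76), X18 double (0.48) or X18 single (0.57), and the change from day 0 to day 8 was -0.36 ± 0.24 (limma adjusted p = 0.239).

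**Figure D2:**
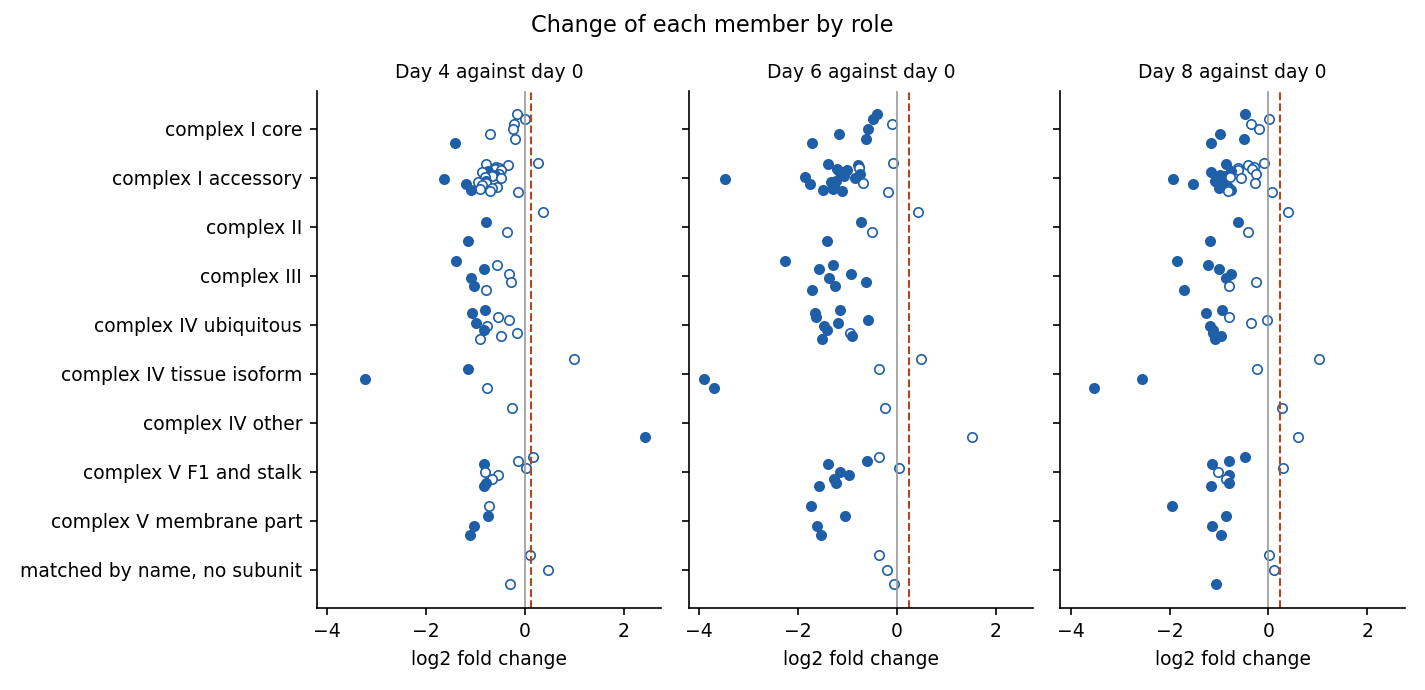
Log2 changes of the 77 tested genes on days 4, 6 and 8 against day 0, 1 point per gene, grouped by complex and role; filled points passed the test, the solid line marks 0 and the dashed line the median of all tested genes. Most points lie below 0, the medians of all 77 being -0.70, -1.14 and -0.80, and Ndufa4l2 lies highest on day 4 at 2.44.

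ATP synthase, complex V, had 6 of 13 tested genes lower on day 4, 11 on day 6 and 10 on day 8. Among all tested genes 9.42%, 16.3% and 16.5% were lower on these days. By role, the F1 head and stalks had 6 of 9 lower on day 8 and the membrane part 4 of 4. Atp5o, a peripheral stalk subunit, had 168, 251, 445 and 427 RPM on day 0, 102, 93.8, 85.0 and 127 RPM on day 6 and 78.9, 115, 151 and 236 RPM on day 8. All day 6 libraries lay below day 0, and those of day 8 overlapped it. The log2 change on day 8 was -1.16 ± 0.28 (limma adjusted p = 0.00108), for a gene with 83.8% of its windows shared with others.

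Atp5b, the catalytic beta subunit, was chosen after its values were seen. It had 2742, 2919, 2357 and 3334 RPM on day 0, 2498, 2324, 2633 and 2778 RPM on day 4 and 1213, 1622, 1653 and 2141 RPM on day 8. Days 0 and 4 overlapped, and day 8 was below both. Its log2 change was -0.14 ± 0.16 by day 4 (limma adjusted p = 0.564) and -0.79 ± 0.16 by day 8 (limma adjusted p = 0.00014). The alpha subunit Atp5a1 was lower on day 8 than on day 4 by -0.65 ± 0.16 (limma adjusted p = 0.00209), and the central stalk subunit Atp5d stood at 0.29 ± 0.20 on day 8 and was not called (limma adjusted p = 0.245).

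Atp5g1, Atp5g2 and Atp5g3 encode one and the same mature subunit c of the membrane ring. Atp5g1 (chr11:96068852-96075670 on mm10) had 29.6, 56.5, 52.4 and 46.9 RPM on day 0, 30.2, 18.8, 33.2 and 28.6 RPM on day 4 and 5.71, 17.5, 15.7 and 11.9 RPM on day 8. Day 8 lay below day 4 and day 0 in every library. It changed by -1.95 ± 0.34 over the course (limma adjusted p = 2.3e-05), and Atp5g3 by -0.86 ± 0.25 (limma adjusted p = 0.00568), a call lost without X18 double, at -0.68. Of the windows of Atp5g1, 59.6% are shared with other genes, and 0 of those of Atp5g3. Per kilobase, Atp5g1 made up 2.36 to 4.03% of the sum of both on day 0 and 0.989 to 2.71% on day 8. The merged exons used here span 4912 bp in Atp5g1 and 2181 bp in Atp5g3, against coding transcripts of 596 and 714 bp. These percentages depend on the merged lengths. The log2 ratio differed by -1.09 between the days (exact permutation test, two-sided, p = 0.0571, adjusted p = 0.114 over 4 isoform pairs). Atp5g2 and Atp5l had 0 to 3 reads in each library and all Atp5g2 windows are shared, so neither could be followed.

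Of 7 tissue isoforms of complex IV, Cox6a2 and Cox8b of heart and skeletal muscle and Cox8c of testis had 0 reads in every library. Cox7a1, the heart and skeletal muscle form of subunit 7a (chr7:30184171-30186028 on mm10), was present on day 0 at 12.5, 30.6, 82.2 and 44.4 RPM. It was at 4.03, 3.88, 3.38 and 3.36 RPM on day 4, 3.39, 2.47, 2.76 and 1.24 RPM on day 6 and 3.63, 3.89, 7.83 and 10.7 RPM on day 8. No later library among these reached the lowest of day 0, and the log2 change was -2.55 ± 0.53 on day 8 (limma adjusted p = 0.00019).

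Its ubiquitous counterpart Cox7a2 had a change of -1.13 ± 0.32 (limma adjusted p = 0.00412), a call lost without X18 double, at -0.97. Per kilobase, Cox7a1 was 14.1 to 25.3% of the sum of both on day 0, 3.50 to 5.11% on day 4 and 6.56 to 9.39% on day 8. The share did not overlap between days 0 and 8. The log2 ratio differed by -1.42 (two-sided exact permutation test, p = 0.0286, the smallest that 4 against 4 libraries allow, adjusted p = 0.114). Of 13 muscle markers 9 were tested. On day 4, 1 was lower and 1 higher (9.42% and 16.3% of all tested genes). On day 8, 3 were lower and 1 higher (16.5% and 29.2%). Their summed level was 11.3 to 39.8 RPM on day 0 and 19.5 to 29.8 RPM on day 4. It was 3.11 to 8.26 RPM on day 8. Of the 13, Myh7, Actc1, Nkx2-5 and Ckm were at 0 reads on day 0. Of 4 brown adipocyte markers only Cidea was tested. It was called lower on day 8, with 0 reads on days 4 and 8 and 5.56 to 10.2 RPM on day 0, while Ucp1, Adipoq and Plin1 were at 0 reads. The part of muscle cells or brown adipocytes in the level of Cox7a1 was not tested.

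Cox7b2 and Cox6b2 are the testis forms. Cox7b2 (chr5:71442824-71548205 on mm10) had 0.925, 20.8, 46.2 and 7.68 RPM on day 0, 14.8, 1.29, 10.7 and 3.92 RPM on day 4 and 0, 0, 1.74 and 0 RPM on day 8, or 101, 50 and 2 reads in all. The day 8 reads all came from X18 double. The limma adjusted p was 0.0049 for day 8 against day 0; the fitted change of -3.53 depends on the 0.9 read the table writes for a gene without reads, so it is no measure of fold. Cox6b2 had 42.1, 77.8, 50.4 and 41.8 RPM on day 0, 23.5, 18.8, 27.0 and 24.1 RPM on day 4 and 35.3, 39.4, 54.8 and 47.6 RPM on day 8.

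Cox6b2 was lower on day 4 than on days 0 and 8. Day 4 was below both other days in every library, by -1.15 ± 0.26 against day 0 (limma adjusted p = 0.00118), and day 8 was 0.91 ± 0.26 above day 4 (limma adjusted p = 0.00607). Its ratio to Cox6b1 did not differ between days 0 and 8 beyond the spread (0.12, two-sided exact permutation test, p = 0.771, adjusted p = 0.771). Among 11 germ cell and testis markers 8 were tested, with Prm1, Tnp1 and Acrv1 at 0 reads. On day 8, 4 of the 8 were lower and 0 higher (16.5% and 29.2% of all tested genes). Summed, they had 279 to 566 RPM on day 0, and the range was 137 to 194 on day 4 and 34.5 to 100 on day 8. Their part in the levels of Cox7b2 and Cox6b2 was not tested.

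Ndufa4l2, a relative of Ndufa4 that is known to be induced by low oxygen (chr10:127514939-127517152 on mm10), was the 1 gene called higher on day 4. It had 14.8, 5.09, 0 and 7.68 RPM on day 0, 30.9, 23.9, 23.7 and 26.3 RPM on day 4 and 3.63, 6.32, 8.70 and 14.3 RPM on day 8. All day 4 libraries lay above those of days 0 and 8. The log2 change was 2.44 ± 0.66 on day 4 (limma adjusted p = 0.00633). It was 1.69, and not called, without X18 double, whose day 0 library had 0 reads and entered at 0.9 read. From day 4 to day 8 the change was -1.83 ± 0.66 (limma adjusted p = 0.031), a call lost without X14 double (-1.42) or X14 single (-1.81). Ndufa4 fell by 1.09 on the log2 scale over the course, a call lost without X18 double, at -0.78. The log2 ratio of Ndufa4l2 to Ndufa4 on day 8 was 1.70 above day 0 (two-sided exact permutation test, p = 0.286, adjusted p = 0.381), and it was 0.51 above without X18 double and 2.81 without X14 double.

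Cox4i2, the lung form known for a response to low oxygen, had 0 reads in all 4 libraries of day 0 and reached 3.90, 3.29, 3.75 and 2.43 RPM on day 5, which are 20 reads in all. Its change was not called on day 4, 6 or 8. Of 9 other oxygen-linked genes, 6 were higher and 0 lower on day 4 (16.3% and 9.42% of all tested genes). On day 8, 5 were higher and 1 lower than on day 0 (29.2% and 16.5%), whereas Ndufa4l2 was not called (0.60 ± 0.66). Between days 4 and 8, 1 of the 9 was higher and 3 were lower (19.3% and 13.4%). On day 8 Slc2a1, the glucose transporter, rose by 3.35, and Pdk1, which blocks pyruvate entry into the citric acid cycle, by 1.38, while Epas1 fell by 2.06. Their summed level was 2349 to 2987 RPM on day 0 and 5680 to 6505 RPM on day 8.

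**Figure D3:**
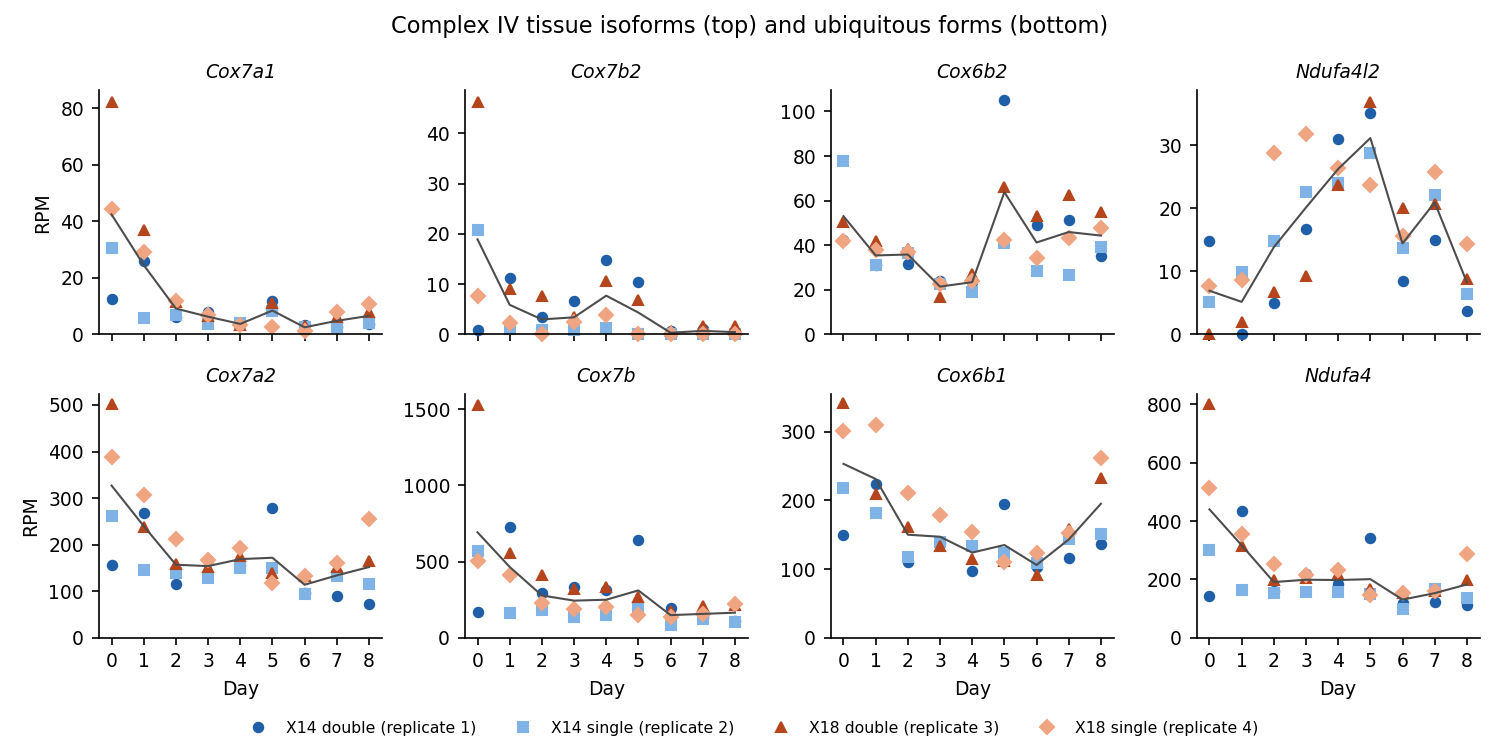
Levels (RPM, linear axes) by day for tissue forms in the upper row (Cox7a1, Cox7b2, Cox6b2 and Ndufa4l2) and a more widely expressed relative under each (Cox7a2, Cox7b, Cox6b1 and Ndufa4), with 1 point per library and lines through daily means. Cox7a1 and Cox7b2 are highest on day 0, Cox6b2 is lower on day 4, at 18.8 to 27.0 RPM, than on days 0 and 8, and Ndufa4l2 is higher on day 4, at 23.7 to 30.9 RPM, than on days 0 and 8.

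Of the 3 genes that match by name and are not subunits, 1 was called lower on day 8 (16.5% of all tested genes). Cox4nb, a subunit of the endoplasmic reticulum membrane complex, had 100, 123, 196 and 212 RPM on day 0, 123, 159, 141 and 163 RPM on day 6 and 53.5, 63.2, 75.7 and 102 RPM on day 8. It was called lower on day 8, by a log2 change of -1.07 ± 0.26 (limma adjusted p = 0.0009), and not on days 4 or 6. Atp5sl (chr7:25619414-25625551 on mm10), a complex I assembly protein, was at 0.12 ± 0.33 on day 8 and Atp5s at 0.02 ± 0.53, neither called.

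Between the labels, 4 of the 77 genes were lower in double libraries over days 1 to 8 (12.8% of all tested genes) and 2 were higher (9.76%), 1 of them with a fitted change of at least 2-fold (2.93%). Double libraries had lower Atp5sl (-0.65 ± 0.10, limma adjusted p = 2.1e-05), Ndufa4l2 (-0.85 ± 0.24, limma adjusted p = 0.00994), Sdhc (-0.29 ± 0.09, limma adjusted p = 0.0183) and Ndufv1 (-0.22 ± 0.08, limma adjusted p = 0.0473). Cox7b2 was higher in double libraries (1.82 ± 0.32, limma adjusted p = 0.00013), as was Cox6b2 (0.32 ± 0.11, limma adjusted p = 0.0304). The single libraries of both lines had 0 reads of Cox7b2 on each of days 5 to 8, so its value depends on the 0.9 read and is no measure of fold. Ndufa4l2 had 0 reads in X14 double on day 1, also entered at 0.9 read. The calls of Ndufa4l2 (-0.92 to -0.77) and Cox6b2 (0.25 to 0.39) were lost whichever replicate was left out, and that of Sdhc without X14 single (-0.36), X18 double (-0.22) or X18 single (-0.22). Libraries of the same line and label on different days may not be independent, and these p-values treat them as if they were. Of the pluripotency markers 6 of 10 were higher in double libraries, where 9.76% of all tested genes were higher. Of the germ cell markers 3 of 8 were higher, Dazl by 1.63 and Mael by 1.61.

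Within lines, Atp5sl was lower in double on 7 of 8 days in X14 and on all 8 in X18, with mean differences of -0.61 and -0.69. On day 4 it had 29.6 and 26.5 RPM in the double libraries and 53.1 and 47.6 RPM in the single ones, and on day 8 it had 16.6 and 31.3 against 28.7 and 51.2 RPM. Sdhc was lower in double on 7 of 8 days in X14 and on 8 of 8 in X18. Cox7b2 had 14.8 and 10.7 RPM in the double and 1.29 and 3.92 RPM in the single libraries of day 4, and 10.4 and 6.87 against 0 and 0 RPM on day 5. On days 6 to 8 no library had more than 2 reads of it.

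The X-linked subunits were all higher in double libraries: Ndufa1, an accessory subunit of complex I, by 1.12 ± 0.13 (limma adjusted p = 2.4e-07), Cox7b, the ubiquitous form of subunit 7b, by 0.80 ± 0.15 (limma adjusted p = 0.00017), and Ndufb11, also of complex I, by 0.63 ± 0.13 (limma adjusted p = 0.00069). Of all tested genes, 9.76% were higher in double libraries, and the share of X-linked genes is not given. X-linked genes as a whole, taken against autosomal ones, were also higher in double libraries. On day 4 they stood at 0.33 and 0.45 in double and at -0.5 and -0.52 in single libraries. On day 4 Ndufa1 had 78.0 and 80.5 RPM in double and 36.9 and 34.8 RPM in single libraries. On day 8 the values were 33.7 and 54.8 against 21.9 and 40.4 RPM. On day 0 the X14 difference was reversed for all 3 and for Cox7b2: Ndufa1 stood at -1.69 in X14 and 1.52 in X18, and Cox7b2 at -4.49 and 2.59. Without X14 single, the label calls of Cox7b (0.54) and Ndufb11 (0.53) were lost. On day 8 Cox7b was lower than on day 0, by -1.75 ± 0.49 (limma adjusted p = 0.00376), a call lost without X18 double, at -1.39. Ndufa1 stood at -0.91 on day 8 and was not called, and at -1.39 on day 6 (limma adjusted p = 0.0277).

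**Figure D4:**
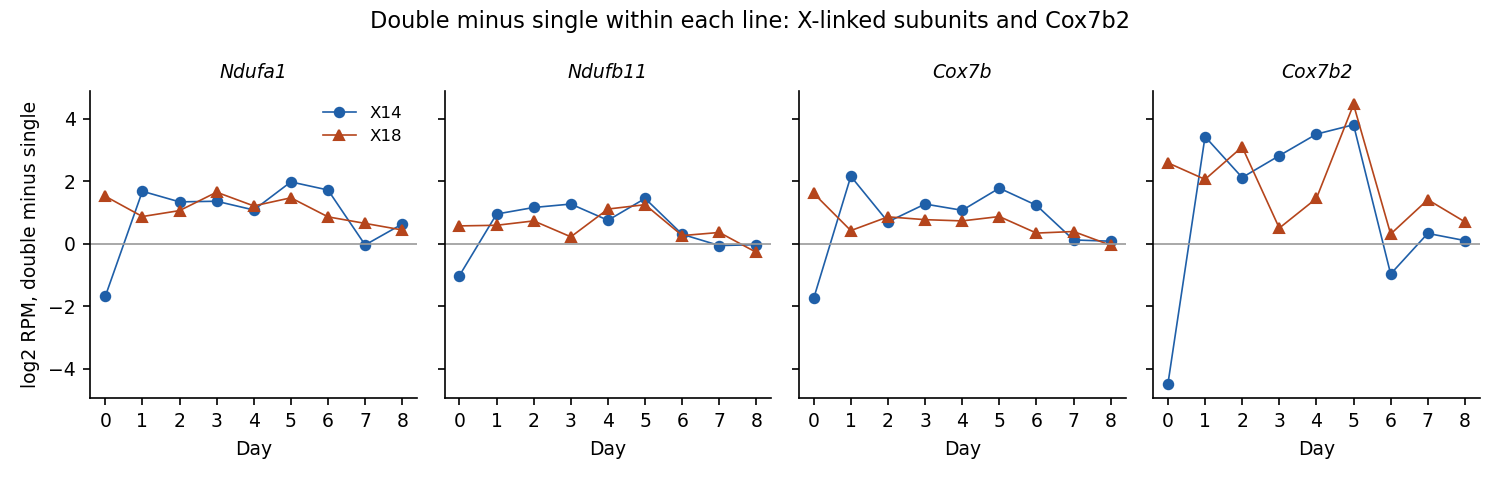
Double minus single on the log2 scale by day for the X-linked subunits Ndufa1, Ndufb11 and Cox7b and for autosomal Cox7b2, 1 point per day for line X14 and 1 for X18. Most points lie above 0, while on day 0 the X14 points lie below it (Ndufa1 at -1.69, Cox7b2 at -4.49) and the X18 points above it (1.52 and 2.59).

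The change with time differed between the labels for 1 gene, Ndufa4l2 (5.91% of all tested genes differed). From days 1 and 2 to days 7 and 8 its double minus single difference rose by 1.85 (limma adjusted p = 0.0188). Between the lines, limma called 0 of 77 genes (0.0205% of all tested genes), with 37 at an unadjusted p under 0.05 (10.6% of all tested genes), and voom called 0 as well, with 47 at an unadjusted p under 0.05. X18 was above X14 in all 77, by a median of 0.25 against -0.00 over all tested genes. The share of all tested genes above X14 is not given. By exon length, all tested genes under 600 bp had a median of 0.18 and those of 4000 bp or more -0.1. Once each library's trend with exon length was removed, the median of the 77 became 0.13, with 21 at an unadjusted p under 0.05. The shares of all tested genes with voom or with the trend removed are not given.

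Changes were also taken by class of exon length. Of all tested genes, those under 600 bp of exon had a median log2 change of -0.32 on day 6 and those of 4000 bp or more 0.58; the 77 genes of the name rule had -1.35 and -0.82 in these classes. In the classes between, the medians of all genes on day 6 were -0.54, -0.29, 0 and 0.21 and those of the 77 were -1.24, -1.06, -1.04 and -0.61. The 77 were below all genes in each of the 6 classes. On day 8 the class medians, from the shortest to the longest, were -0.28, -0.39, -0.24, 0.09, 0.21 and 0.51 in all genes, and in the shortest and longest of the 77 they were -0.87 and -0.79. With each library's trend on exon length removed, the medians were -0.50, -0.86 and -0.70 on days 4, 6 and 8, and 32, 62 and 50 genes were called. The share of all tested genes called with the trend removed is not given, so these counts cannot be read against it.

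Library by library, the median deviation of the 77 genes from their means followed that of other tested genes under 1000 bp (Pearson r = 0.92, Spearman rho = 0.90 over 36 libraries, a description with no test; the points share day, line and depth). The shallowest library, X14 double on day 5, had the 77 genes 0.67 and other short genes 0.54 above their means. Without it, the calls against day 0 numbered 30, 61 and 48 for days 4, 6 and 8, and the share of all tested genes called is not given. The part of gene length in the fall was not tested beyond these values.

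**Figure D5:**
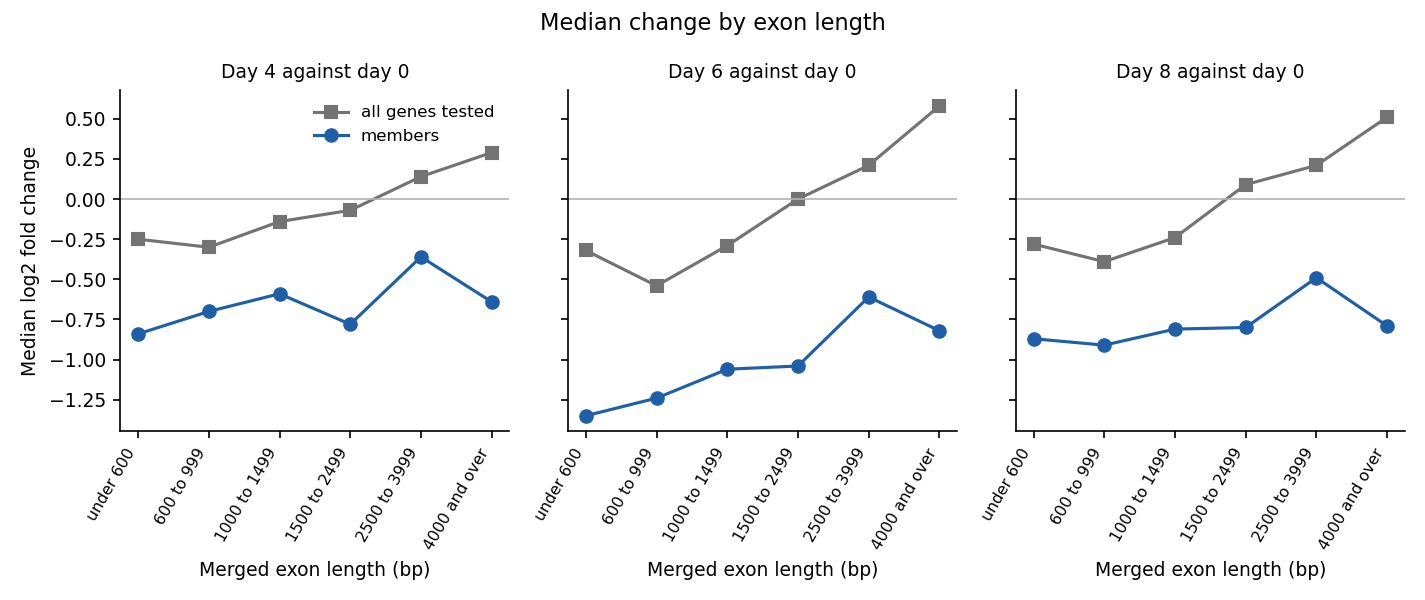
Median log2 change against day 0 by class of merged exon length (bp), for all tested genes (squares) and for the 77 genes of the name rule (circles), on days 4, 6 and 8. The 77 genes lie below all genes in every class, for example at -1.35 against -0.32 under 600 bp and at -0.82 against 0.58 from 4000 bp on day 6.

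Changes were also counted by shared sequence. Among 60 tested genes sharing under 20% of windows, 46 were lower on day 6 (16.3% of all tested genes), with a median of -1.12. Of the other 17, 14 were lower with a median of -1.33. On day 8 the counts were 34 of 60 and 11 of 17 (16.5% of all tested genes), with medians of -0.80 and -0.87. The part of shared sequence in the fall was not tested further.

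Other genes of the pathway are read against the 16.5% of all tested genes that were lower and the 29.2% that were higher on day 8. Of 38 assembly factors 27 were in the table; 7 were lower and 1 higher, with a median of -0.37. Ecsit and Ndufaf4, which help build complex I, had log2 changes of -1.41 and -1.32, and Sco1, a copper chaperone of complex IV, of -1.16, while its relative Sco2 rose by 0.90. Of 12 tested biogenesis factors 2 were higher (Polg, the mitochondrial DNA polymerase, by 1.12, and Yy1 by 0.86) and 2 lower (Esrrb by 4.10 and Gabpb1, a GABP subunit, by 0.55). Nrf1 stood at 0.12 and Tfam, which packages mitochondrial DNA, at -0.45, neither called. Esrrb is also one of the 10 pluripotency markers, all of which were lower on day 8, their summed level going from 4128 to 5394 RPM on day 0 to 389 to 733 RPM on day 8.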

How the data were processed

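The authors sequenced 75 bp single-end reads, trimmed them with trim_galore, mapped them onto mm10 by tophat or hisat2, and obtained gene values with the SeqMonk RNA-seq pipeline; the submitters' processing notes name bcl2fastq and TopHat2 2.0.12. The annotation version and use of strand are not given in the sources used here. The deposited table holds log2 values for 25965 genes in 36 libraries. Its name speaks of CPM, but the values are log2 RPKM, per kilobase of merged exon: 100.0% of them came out as whole reads within 0.02 of a read, with 0.9 read written for a gene without reads. RPM was computed from those reads and the library totals the authors divided by, of which 77.7 to 90.9% lay in genes.

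Genes with at least 1 RPM in at least 4 of 36 libraries (14612) were fitted on the deposited log2 values with limma 3.58.1 (R 4.3.3; lmFit, then eBayes with trend), all 36 libraries entering 1 model whose factor was day. Label and line were fitted on the 32 libraries of days 1 to 8, with day and the other factor, since the X14 day 0 libraries go against their labels, and the change with time was tested as the interaction of label with days 7 and 8 against days 1 and 2. A call is a Benjamini-Hochberg adjusted p under 0.05. Isoform ratios were compared with an exact permutation test of 70 permutations (SciPy 1.17.1). Columns without a sample numbered 0. Scripts were tested on simulated data.

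The genes, gene lists and comparisons were chosen with earlier results of these data known. Named genes are the 2 with the largest rise and fall from day 0 to day 8 in each complex (called, same direction in all 4 same-numbered pairs, at least 10 RPM), those with the largest label differences, the isoform pairs, Sdha to Sdhd, the X-linked subunits and the cytochromes; others are said to be chosen after their values were seen. Replicate numbers mark the same line and label on each day, so they pair libraries by cell line, as the labels give it; deviations of same-numbered libraries correlated at -0.17 to 0.19 between days 0 and 4, 0.02 to 0.30 between days 0 and 8 and 0.12 to 0.19 between days 4 and 8. Alternatives were other scalings, filters, removal of the length trend, voom, single lines, the block and leaving out libraries. Promoters are from RefSeq (GRCm38.p6), where all 82 genes matched a gene; shared windows are from GENCODE M21 transcripts.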

Additional observations from a re-analysis of the deposited data

Results flagged for a closer look

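In 4 of the 93 sets of 4 libraries looked at (1 gene on 1 day), 1 library stood far from the other 3, where chance gives about 1 in 20. Cox7b2 had 1.74 RPM in X18 double on day 8 and 0 in the other libraries. Cycs, the somatic cytochrome c, had 9.52 RPM in X18 single on day 8 and 0.87 to 1.04 in the others, which are 8 reads against 1 or 2. Ndufb4 had 11.9 RPM in X18 single on day 8 against 2.61 to 3.89, and Sdhd had 189 RPM in X18 single on day 4 against 164 to 168. The change of Ndufa4l2 from days 1 and 2 to days 7 and 8 differed between the labels by 1.85 on the log2 scale, double minus single, by the test of the interaction (limma adjusted p = 0.0188). This size depends in part on the 0.9 read entered for X14 double on day 1, which had 0 reads of the gene.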

How the results depend on the processing

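The number of genes called depended on several choices. Counts here are of the 77 genes alone, and the shares of all tested genes called under each choice are not given. Leaving out 1 replicate number gave 7 to 51 calls on day 4 against day 0 (26 with all), with 51 without replicate 1, 12 without replicate 2, 7 without replicate 3 and 13 without replicate 4; 25 to 48 on day 8 (45), lowest without replicate 3; 5 to 8 between days 4 and 8 (10); 36 to 62 over all days (60); 2 to 4 between labels (6), and 0 to 7 between lines (0). On day 6 (60) it gave 41 to 63. Only 6 of the 26 calls on day 4 and 19 of the 45 on day 8 were kept whichever replicate was left out. Fitting the compared days alone gave 12 on day 4 and 21 on day 8. Such a fit has fewer libraries behind the spread and uses only the spread of those days, where the main fit pools all 9 days. Without both X14 day 0 libraries day 4 gave 53. Asking for a 2-fold change left 14, 23, 3 and 1 on day 4, on day 8, between days 4 and 8 and between labels. Removing the length trend gave 16 between days 4 and 8 and 14 between labels; quantile normalization gave 11 between labels and 3 for the interaction (1). In X14 alone, 2 genes differed between labels, and in X14 or X18 alone 0 changed differently with time. The cause of these differences was not tested. The Cox6b2 to Cox6b1 ratio went from -0.06 without replicate 3, a reversed sign, to 0.32 without replicate 2. Scaling to the 75th percentile moved the median of all genes on day 8 from 0.23 to -0.05 and that of the 77 genes to -1.08; between days 4 and 8 the higher and lower calls were 1 and 10 with it, 4 and 8 with quantile normalization, and 2 and 8 in the report. Of 655 values for named genes under these settings, 577 kept their side of the threshold, 78 did not pass it any more, and 0 were reversed.

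With the replicate number as a block, 37 genes were called on day 4, 49 on day 8, 12 between days 4 and 8, 64 over all days, 63 on day 6 and 1 for the interaction, and no count moved by more than 1.5 times. The paired form of the isoform tests gave exact p = 0.125 for Cox7a1 to Cox7a2 and for Atp5g1 to Atp5g3, the smallest it allows with 4 pairs.

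Depth limits genes such as Ndufb4, Cox7b2, Cox4i2 and Cycs, where a library held a few reads, and 4 combinations of line and label limit the comparisons of label and line.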
